A study of Mus musculus with 15 samples.

Results

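The 39 genes described here encode the folding, translocation, quality control and stress-sensing machinery of the endoplasmic reticulum (ER). They were taken by symbol from the 17493 genes in count tables of 15 bulk RNA libraries from CD8+ OT-I mouse T cells, and all 39 were found. By role, 3 are stress sensors and factors, 10 are ER chaperones and cochaperones, 7 are lectins and enzymes of disulfide formation, 13 act in translocation and signal peptide cleavage, and 6 act in ER-associated degradation. A filter on low counts left 10831 genes for testing, among them 38 of the 39, and Ern1 was the member that it removed.

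Proteins bound for the cell surface or for secretion enter the ER through the Sec61 channel, lose their signal peptide, receive glycans and disulfide bonds, and fold with the help of chaperones. When unfolded protein accumulates, the sensors IRE1 (encoded by Ern1), ATF6 and PERK start the unfolded protein response: IRE1 splices the Xbp1 transcript, ATF6 is cleaved to a transcription factor, and PERK slows translation and raises ATF4. A CD8+ T cell that is activated begins to make cytokines, granzymes and surface receptors, all of which pass through the ER.

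OT-I mice (C57BL/6-Tg(TcraTcrb)1100Mjb) carry a transgenic T cell receptor for an ovalbumin peptide on MHC class I, so nearly all of their CD8+ T cells respond to the same antigen. Cells were taken from lymph nodes and spleen of females whose age is not given. The 5 groups of 3 libraries were unstimulated cells at 0 h, cells stimulated for 8 h or 22 h with immunofilaments (IF), and cells stimulated for the same times with dendritic cells (DC). IF are synthetic filaments, here bearing SIITFEKL-loaded MHC together with IL-2, at 5 ng/ml. Each DC well held 20000 Flt3 ligand-grown dendritic cells loaded with SIITFEKL peptide. Stimulated wells held 50000 T cells, and viable CD8+ CD103- cells were sorted for RNA. IL-2 was thus a part of the IF stimulus and not an added part of the DC stimulus. With no unstimulated culture at 8 h or 22 h, stimulation and time in culture cannot be told apart in any comparison with the 0 h cells. The titles mark the 3 libraries of every group Don1 to Don3, and the labels do not say whether these are separate animals or the same ones in every group. If they are not separate animals, p-values measure only the spread between these libraries, which may be technical.

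Total counts ran from 2892874 to 19806730 per library, and the 39 genes held between 0.329% and 0.48% of them. All 7 T cell markers found in the tables (Cd3e, Cd3d, Cd3g, Cd8a, Cd8b1, Lck and Cd2) were detected in every library. They summed to 8510 to 9230 CPM (the normalised read count per 1e6 counts, with library totals scaled by the trimmed mean of M values, TMM) in unstimulated and to 3830 to 6150 CPM in stimulated cells. Of the 7, edgeR called 6 lower with IF and 7 with DC at 8 h, and 5 lower with either at 22 h. Macrophage and neutrophil markers summed to at most 23 CPM in any library, and to 0 in 1 IF 8 h library. IF 22 h replicates 2 and 3 stood apart by their mitochondrial ribosomal RNA, 0.179% and 0.146% of counts against 1.82% to 4.49% in the other 13 libraries. Replicate 2 of both DC groups stood apart within the ER genes and is described in a paragraph of its own. In bulk RNA, fewer cells of a type and less RNA per cell cannot be told apart.

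Many ER chaperone genes carry an ER stress element in their promoter, the sequence CCAAT, 9 bases, CCACG, to which NF-Y and ATF6 bind. Promoter windows from 250 bases before to 50 bases after the start were available for 31 of the 39 genes (RefSeq, GRCm38.p6), and both strands were searched. The exact element was found in 8 of the 31 (25.8%), against 37 of 27025 genes (0.137%) with a window in the same table. The stretches are shown because these genes recur in the results below, with 5 bases on either side of the element and its CCAAT and CCACG motifs in capitals, each read in the direction of the element.
Hspa5 (chr2:34772020-34772048, + strand): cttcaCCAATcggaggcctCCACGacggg
Hsp90b1, first (chr10:86705633-86705661, - strand): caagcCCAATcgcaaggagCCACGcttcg
Hsp90b1, second (chr10:86705528-86705556, + strand): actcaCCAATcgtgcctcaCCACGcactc
Calr (chr8:84847070-84847098, + strand): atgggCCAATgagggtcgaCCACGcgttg
Canx (chr11:50325795-50325823, - strand): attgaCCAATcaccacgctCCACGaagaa
Pdia6 (chr12:17266486-17266514, + strand): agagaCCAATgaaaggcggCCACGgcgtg
Creld2 (chr15:88819515-88819543, - strand): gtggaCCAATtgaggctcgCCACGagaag
Dnajc3 (chr14:118937822-118937850, + strand): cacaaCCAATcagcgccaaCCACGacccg
Syvn1 (chr19:6046527-6046555, + strand): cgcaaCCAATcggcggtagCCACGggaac
The elements lay between 212 and 26 bases before the RefSeq start, and Hsp90b1 carried 1 on each strand. GENCODE places the start of Hspa5 120 bases further upstream, so the Hspa5 element lies downstream of that start.

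The related ER stress element II (ATTGG, 1 base, CCACG) was found in Dnajb11 and Herpud1, 6.45% of the 31 members, against 0.0444% of all genes with a window. The Herpud1 copy is shown with ATTGG and CCACG in capitals.
Herpud1 (chr8:94386372-94386392, + strand): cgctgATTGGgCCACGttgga
The ATF6 core TGACGTGG was in none of the 31, against 0.714% of genes, which says only that these letters are not in the windows. Dnajb9, the member that was called in all 4 comparisons with unstimulated cells, had neither element in its window, but that window lies wholly downstream of the GENCODE start of the gene and so holds no base before that start. The same holds for Spcs2 and for 1 of 2 windows of Derl2.

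Against the unstimulated cells, the cochaperone gene Dnajb9 fell in all 4 stimulated groups, the cochaperone gene Dnajc3 fell with DC at 8 h, and no other member passed an adjusted p of 0.05 (edgeR quasi-likelihood test, Benjamini-Hochberg over 10831 genes). With IF at 8 h, 1 of the 38 tested members was called, or 2.63%, where 7.76% of all tested genes were. By direction that was 0 higher, against 3.04% of all genes, and 1 lower, against 4.72%. With DC at 8 h it was 2 of 38, or 5.26%, against 6.82% of all genes, with 0 higher (2.75%) and 2 lower (4.07%). At 22 h it was 1 of 38 with IF, against 6.08%, with 0 higher (2.63%) and 1 lower (3.44%). With DC at 22 h it was again 1 of 38, against 7.76%, with 0 higher (3.41%) and 1 lower (4.35%). DESeq2 called 3, 4, 6 and 3 members in the same order (7.89%, 10.5%, 15.8% and 7.89% of 38, beside 11.7%, 10.8%, 9.84% and 11.7% of all genes), adding Xbp1 and Spcs3 (IF 8 h), Derl2 and Sec61b (DC 8 h), Dnajb11, Dnajc3, Hspa5, Pdia3 and Spcs3 (IF 22 h), and Sec61b and Spcs2 (DC 22 h). At an unadjusted p under 0.05, 8 members passed with IF at 8 h, 4 with DC at 8 h, 11 with IF at 22 h and 4 with DC at 22 h, where 22.9%, 20.9%, 20.5% and 22.2% of all genes did. The count with IF at 22 h depended on 1 library: without IF 22 h replicate 1 it was 5 (13.2%, beside 8.49% of all genes), the further 4 being Dnajc3, Pdia3, Sec62 and Spcs3. With library totals alone as the scaling, 6 members were higher and 1 lower with IF at 8 h, against 0 higher and 1 lower as reported. Under that scaling 7.84% of all genes were called higher and 2.44% lower.

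**Figure D1:**
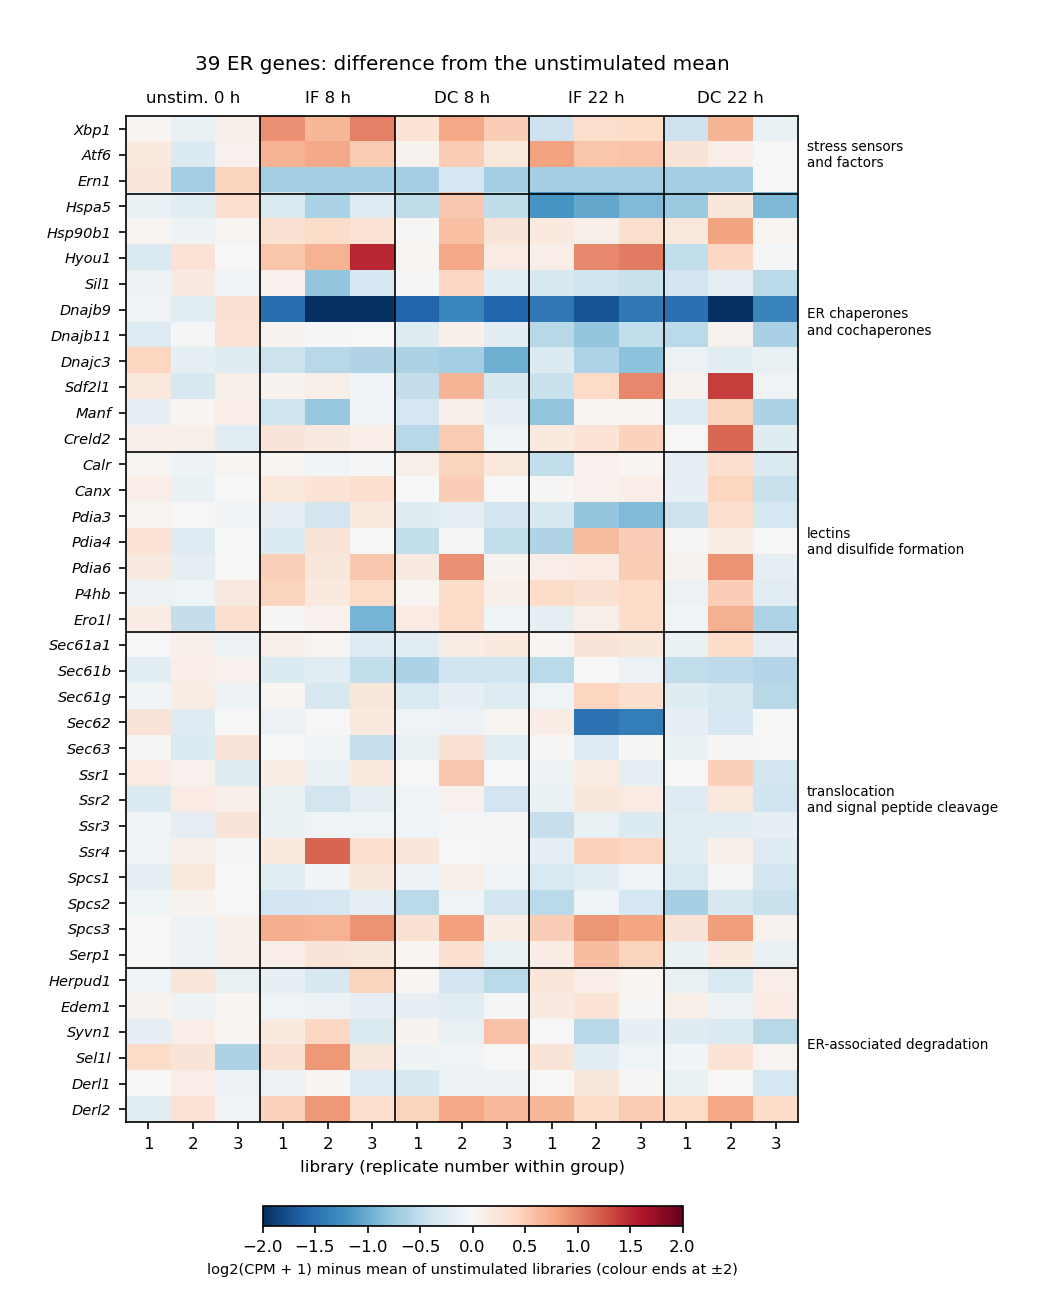
The 39 ER genes by role (rows) in the 15 libraries (columns), as log2(CPM + 1) minus the mean of the 3 unstimulated libraries, with red above and blue below that mean and colours ending at ±2. The Dnajb9 row is blue in all 12 stimulated libraries, the Sec62 row is deepest blue in IF 22 h replicates 2 and 3, and replicate 2 of both DC groups is redder than its neighbours.

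The fold changes of the set centred near 0. The median log2 fold change of the 38 genes was 0.00 with IF and -0.01 with DC at 8 h, and 0.08 with IF and -0.03 with DC at 22 h, beside medians of 0.02, 0.04, 0.01 and 0.04 over all genes. Positive values were seen for 20, 19, 21 and 15 of the 38 in the same order. With IF at 8 h, all 3 libraries lay above all 3 unstimulated ones for 12 of the 38 members and below them for 4. Of all genes, 14.2% lay above, a smaller share than among the members, and 16.4% lay below, a larger one. With DC at 8 h the numbers were 4 above (12.9% of all genes) and 6 below (15.2%). For IF at 22 h they were 7 above (15.7%) and 7 below (14.7%), and for DC at 22 h 2 above (12.8%) and 6 below (14.2%). The unadjusted 95% interval of the fold change stayed within 2-fold in either direction for 29, 31, 26 and 32 of the 38 members, against 41.8%, 44.5%, 45.3% and 43.1% of all genes, whose expression levels were not matched to those of the members. The 8 genes with an ER stress element had median log2 fold changes of 0.17, 0.20, -0.01 and -0.02 in the 4 comparisons, beside 0.00, -0.06, 0.01 and -0.08 for the 22 tested genes whose window held none.

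**Figure D2:**
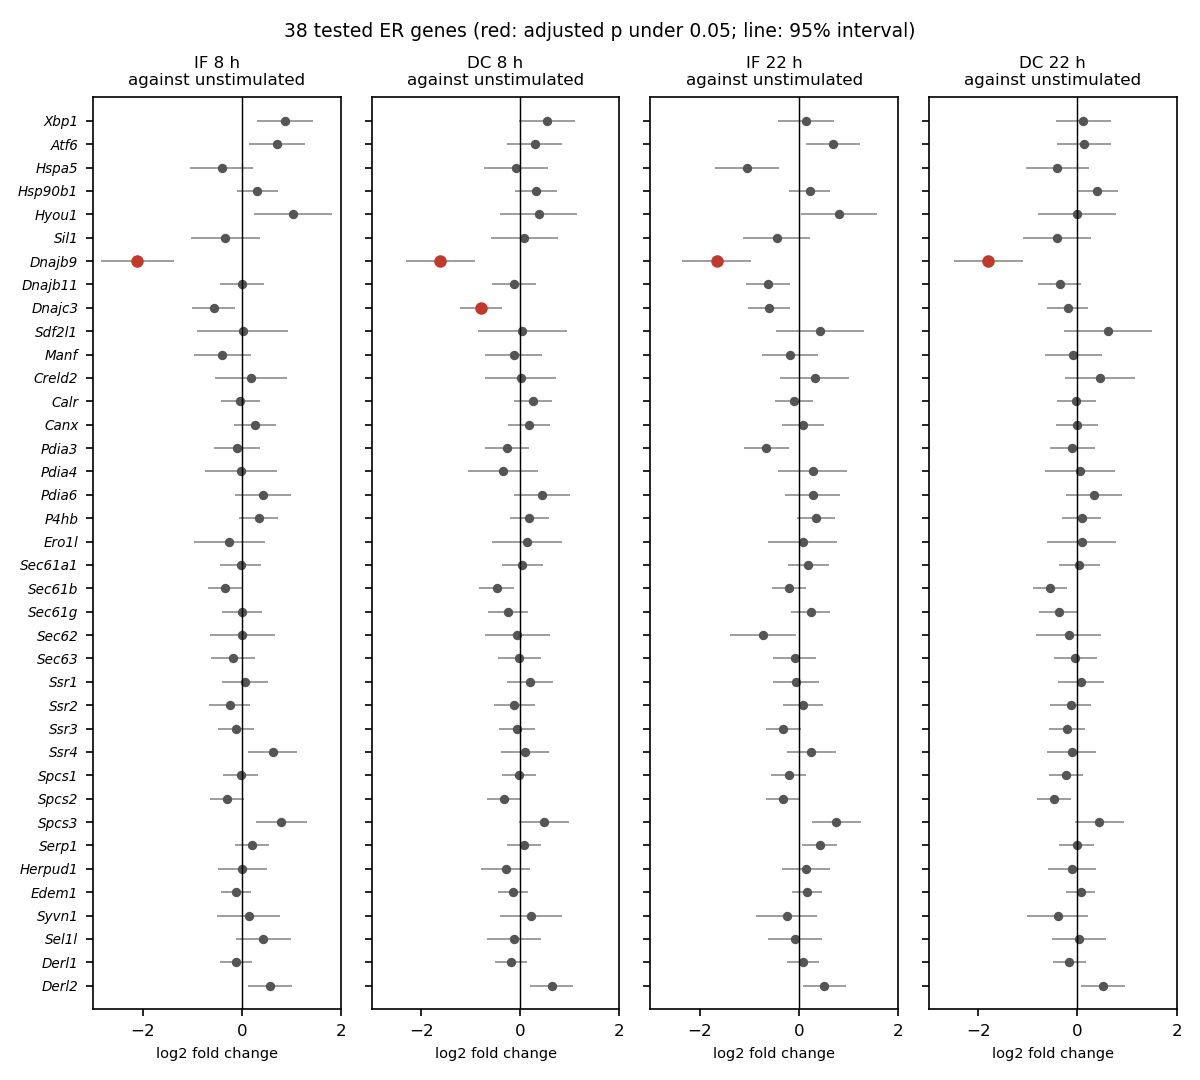
Log2 fold changes of the 38 tested ER genes against unstimulated cells in 4 panels, with unadjusted 95% intervals as lines and genes with an adjusted p under 0.05 in red. Dnajb9 is red in every panel and Dnajc3 in the DC 8 h panel.

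Dnajb9 (ERdj4; chr12:44205559-44210326, minus strand, GRCm38, GENCODE vM21) encodes a J-domain cochaperone of the ER chaperone BiP that also holds IRE1 inactive, and it is a classical target of spliced Xbp1. Its level was 22.3, 20.0 and 29.3 CPM in the 3 unstimulated libraries. IF gave 7.67, 4.64 and 4.01 CPM at 8 h and 8.09, 6.45 and 8.11 CPM at 22 h, and DC gave 7.22, 8.94 and 7.19 CPM at 8 h and 7.73, 3.87 and 8.88 CPM at 22 h. Each of the 12 stimulated libraries lay below each unstimulated library, and the 4 stimulated groups overlapped with one another. Dnajb9 fell by 2.10 ± 0.348 (SE) on the log2 scale with IF at 8 h (edgeR adjusted p = 0.00136) and by 1.61 ± 0.329 with DC at 8 h (adjusted p = 0.00641). At 22 h it fell by 1.65 ± 0.327 with IF (adjusted p = 0.00609) and by 1.80 ± 0.330 with DC (adjusted p = 0.00301). These calls were kept without any single library and under each other setting that tested the gene, apart from IF at 22 h with replicates 2 and 3 both left out. That left 1 IF 22 h library, assumed to vary like the other groups, and a log2 fold change of -1.56 (adjusted p = 0.252). A filter at a mean of 10 CPM left the gene out. An exon of Dnajb9 shares bases with the microRNA gene Mir5627 on the opposite strand, and whether the counting used strand is not given, so reads of the 2 genes cannot be told apart.

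Plasma cells, which are rich in ER, are a source of ER transcripts in lymphoid tissue, and the B and plasma cell markers also differed between the groups. Of 11 such markers in the tables, 9 to 10 were detected in each unstimulated library, with summed levels from 62.1 to 80.2 CPM. The sums were 52.2 to 89.1 CPM with IF at 8 h, 9.18 to 27.7 CPM with DC at 8 h, 72.5 to 136 CPM with IF at 22 h and 7.95 to 23.7 CPM with DC at 22 h. The plasma cell gene Igj stood at 38.1, 27.3 and 41.4 CPM in unstimulated cells, at 7.67, 28.1 and 20.6 CPM with IF at 8 h and at 0.396 to 9.39 CPM with DC at 8 h. Its level was 2.73 to 8.01 CPM with IF at 22 h and 0 to 3.52 CPM with DC at 22 h. Pou2af1, which activated T cells can also express, was at 24.2 to 33.5 CPM at 8 h and 45.9 to 83.6 CPM at 22 h with IF, against 5.06 to 13.5 CPM unstimulated. The defining B cell gene Ms4a1 was at most 0.93 CPM in any library. Dendritic cell markers summed to 754 to 1620 CPM in unstimulated cells, 307 to 676 CPM over both IF groups and 533 to 1350 CPM over both DC groups. Macrophage and neutrophil markers stood at 8.36 to 23 CPM unstimulated and at 0 to 3.52 CPM in the stimulated libraries. T cell markers were also lower in all 12 stimulated libraries, from 3830 to 6150 CPM against at least 8510 CPM. The part of these marker levels in the Dnajb9 result was not tested.

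Dnajc3 (p58IPK; chr14:118937976-118981697, plus strand) encodes a BiP cochaperone that is also described as an inhibitor of PERK. Unstimulated libraries had 121, 78.7 and 76.3 CPM, DC 8 h libraries 57.8, 56.1 and 45.3 CPM and IF 8 h libraries 66.8, 60.9 and 58.9 CPM. Both 8 h groups lay wholly below the unstimulated one, and the highest unstimulated library was far above the other 2. Dnajc3 fell by 0.80 ± 0.201 on the log2 scale with DC at 8 h (edgeR adjusted p = 0.0229). The call was lost without unstimulated replicate 1 (-0.54, adjusted p = 0.137), without DC 8 h replicate 2 (-0.84, adjusted p = 0.0565) and without DC 8 h replicate 3 (-0.69, adjusted p = 0.0908). It was also lost with library totals alone as the scaling (-0.53, adjusted p = 0.104). With IF the log2 fold change was -0.57 at 8 h (adjusted p = 0.0997) and -0.60 at 22 h (adjusted p = 0.0912), where the libraries stood at 74.3, 58.5 and 50.5 CPM. DC at 22 h gave 83.2, 76.5 and 81.3 CPM, within the unstimulated range, with a log2 fold change of -0.20 (adjusted p = 0.596).

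Hspa5 (BiP; chr2:34771970-34777547, plus strand) encodes the main Hsp70 chaperone of the ER and the usual readout of ER stress. Its level was 224, 211 and 311 CPM in unstimulated cells, 201, 157 and 204 CPM with IF at 8 h, and 108, 119.9 and 132 CPM with IF at 22 h. DC gave 172, 358 and 172 CPM at 8 h and 145, 287 and 131 CPM at 22 h. Both IF groups lay below all unstimulated libraries, while in each DC group replicate 2 was within or above the unstimulated range and its companions were below it. The log2 fold change was -0.41 with IF at 8 h (adjusted p = 0.456), -1.05 ± 0.305 with IF at 22 h (adjusted p = 0.052), -0.09 with DC at 8 h (adjusted p = 0.916) and -0.40 with DC at 22 h (adjusted p = 0.461). At 22 h both stimuli changed sides of the threshold with a choice of processing or of libraries. With IF the gene was called under DESeq2 (adjusted p = 0.0117), in the fit of the 2 groups alone (adjusted p = 0.00516) and with the replicate block (adjusted p = 0.046). With DC it was called once replicate 2 of both DC groups was left out (-0.82, adjusted p = 0.0107). That setting was chosen after seeing the data. Replicate 2 was high in Hspa5 itself, so leaving it out lowers the DC mean.

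The other 7 chaperone genes passed in no comparison with unstimulated cells by edgeR as fitted. Hyou1, an Hsp70-like nucleotide exchange factor for BiP, was at 7.19, 11.2 and 9.07 CPM unstimulated and at 13.7, 15.2 and 27.6 CPM with IF at 8 h (log2 fold change 1.04 ± 0.372, adjusted p = 0.101), with no overlap of the groups. It was called with the replicate number as a block (adjusted p = 0.0469) and with library totals alone (adjusted p = 0.0372). Hsp90b1 (GRP94), the ER Hsp90, lay between 81.5 and 90.9 CPM unstimulated and between 106 and 113 CPM with IF at 8 h (0.32, adjusted p = 0.37). Dnajb11 (ERdj3), a BiP cochaperone that binds unfolded chains, was at 50.2, 59.4 and 73.7 CPM unstimulated and at 40.6, 34.9 and 42.8 CPM with IF at 22 h (-0.63 ± 0.208, adjusted p = 0.0885 by edgeR and 0.0431 by DESeq2). Sil1, the other exchange factor of BiP, had group means from 6.00 to 8.66 CPM, and its values of -0.45 and -0.42 at 22 h came with adjusted p of 0.473 and 0.475. Manf, a secreted ER stress protein, had log2 fold changes between -0.39 and -0.08. Sdf2l1, a partner of ERdj3, and Creld2, an ER stress-induced disulfide isomerase-like protein, reached 0.62 and 0.45 with DC at 22 h (adjusted p = 0.407 and 0.454), where replicate 2 alone set the mean: 20.8, 53.6 and 18.8 CPM for Sdf2l1 and 19.1, 43.5 and 16.0 CPM for Creld2.

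**Figure D3:**
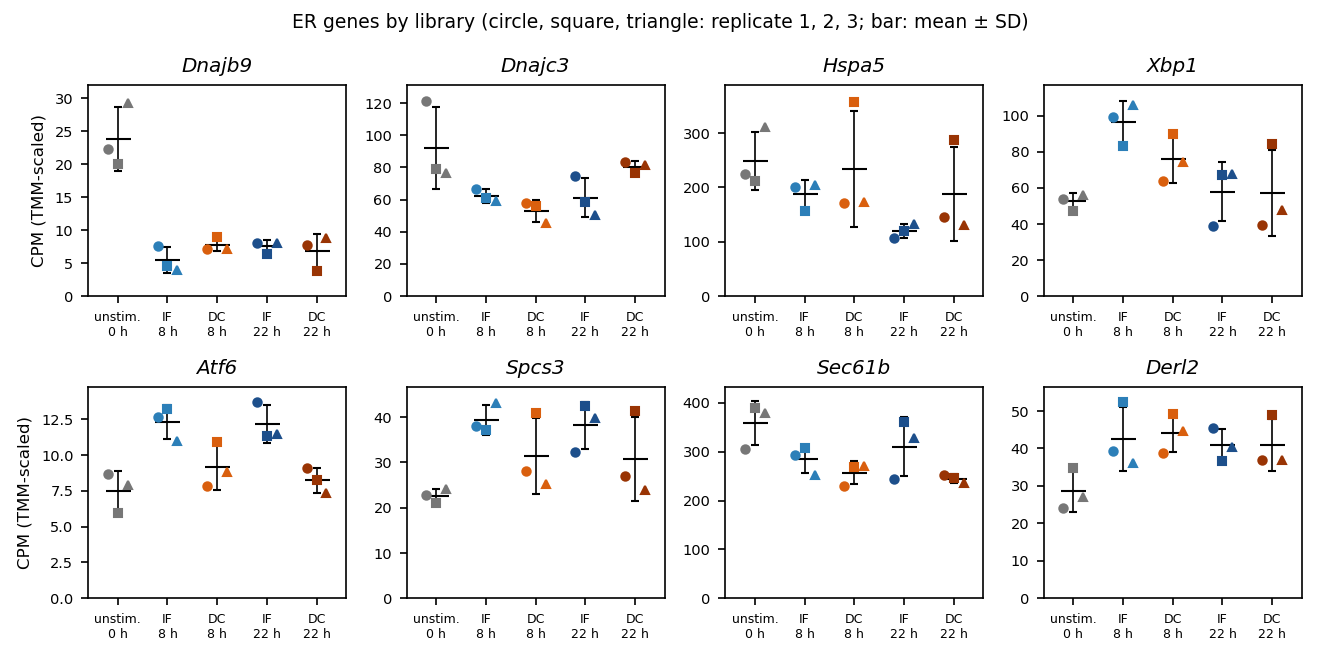
CPM of 8 ER genes in each library (circle, square and triangle for replicates 1, 2 and 3; bar for mean ± SD over 3 libraries) in the 5 groups, with each axis starting at 0. Dnajb9 falls from 20.0 to 29.3 CPM to under 9 CPM in every stimulated library, and the square of replicate 2 stands above its group for Hspa5, Xbp1 and Spcs3 in both DC groups.

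Among the sensors and factors, Xbp1 (chr11:5520659-5525893, plus strand), whose spliced transcript encodes the factor that widens the secretory pathway, was at 54.1, 47.5 and 56.0 CPM in unstimulated cells. With IF at 8 h it was at 99.5, 83.5 and 106 CPM, and with DC at 8 h at 63.7, 90.0 and 74.4 CPM. All 6 libraries at 8 h lay above the unstimulated range. At 22 h the values were 38.9, 67.4 and 67.7 CPM with IF and 39.2, 84.3 and 47.7 CPM with DC, on both sides of that range. The log2 fold change was 0.88 ± 0.269 with IF at 8 h (edgeR adjusted p = 0.0558) and 0.53 ± 0.266 with DC at 8 h (adjusted p = 0.269), then 0.14 and 0.12 at 22 h (adjusted p = 0.819 and 0.842). With IF at 8 h the gene was called under DESeq2 (adjusted p = 0.0231), in the fit of the 2 groups alone (adjusted p = 0.00263) and with the replicate block (adjusted p = 0.0449). Counts per gene do not separate spliced from unspliced Xbp1.

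Atf6 was at 8.65, 5.96 and 7.91 CPM unstimulated, at 12.7, 13.2 and 11.0 CPM with IF at 8 h and at 13.7, 11.3 and 11.5 CPM with IF at 22 h. With DC it was at 7.81, 10.9 and 8.80 CPM at 8 h and at 9.10, 8.29 and 7.34 CPM at 22 h. The IF libraries lay above the unstimulated and the DC libraries at both times, without overlap, while the DC libraries overlapped the unstimulated ones. Its log2 fold change was 0.71 and 0.69 with IF (adjusted p = 0.119 and 0.133) and 0.29 and 0.13 with DC (adjusted p = 0.587 and 0.819). Ern1 was at 0.88, 0 and 1.16 CPM unstimulated, at 0.248 CPM in 1 DC 8 h library and at 0.598 CPM in 1 DC 22 h library. It had no count in the remaining 10 libraries. Without the low-count filter edgeR called it in no comparison, and no difference was detectable at this depth.

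None of the 7 lectin and disulfide genes passed in any comparison with unstimulated cells by edgeR as fitted. Calr and Canx, the lectin chaperones that hold monoglucosylated glycoproteins, had log2 fold changes from -0.10 to 0.27, with adjusted p of at least 0.449. Pdia3 (ERp57), the isomerase that works with them, was at 96.4, 92.1 and 89.1 CPM unstimulated and at 73.5, 53.4 and 49.4 CPM with IF at 22 h (-0.66 ± 0.215, adjusted p = 0.0848), below it in each library. It was called there by DESeq2 (adjusted p = 0.0388) and in the fit of the 2 groups alone (adjusted p = 0.0493). P4hb, the prototype disulfide isomerase, was at 90.5 to 109 CPM unstimulated and at 111 to 132 CPM with IF at 8 h (0.35, adjusted p = 0.28). Pdia6, an isomerase that also acts on IRE1, was at 79.3 to 102 CPM unstimulated and at 105 to 131 CPM with IF at 8 h (0.42, adjusted p = 0.373). Pdia4 and Ero1l, the oxidase that recharges the isomerases, had adjusted p of at least 0.61.

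None of the 13 genes of translocation and signal peptide cleavage passed against unstimulated cells by edgeR as fitted. Spcs3, a signal peptidase subunit, came nearest among the higher values: 22.7, 20.9 and 24.2 CPM unstimulated, 38, 37.1 and 43.1 CPM with IF at 8 h and 32.3, 42.4 and 39.7 CPM with IF at 22 h. Both IF groups stood above the unstimulated one in all libraries, with log2 fold changes of 0.80 ± 0.240 (edgeR adjusted p = 0.0513) and 0.76 ± 0.236 (adjusted p = 0.0707). DESeq2 called both (adjusted p = 0.0232 and 0.0387), and the replicate block called the first (adjusted p = 0.0478). The companion subunit Spcs2 went the other way, at 248 to 277 CPM unstimulated and 166 to 209.9 CPM with DC at 22 h (-0.47 ± 0.164, adjusted p = 0.094 by edgeR and 0.0418 by DESeq2), and Spcs1 lay between -0.23 and -0.02. Sec61b, the beta subunit of the channel, was at 306, 389 and 380.2 CPM unstimulated and at 253, 247 and 236 CPM with DC at 22 h. These groups did not overlap, and the log2 fold change was -0.55 ± 0.163 (adjusted p = 0.0503 by edgeR and 0.0121 by DESeq2, which also called the gene with DC at 8 h, adjusted p = 0.0367). Sec61a1, the pore subunit, had values between -0.02 and 0.19, and Sec61g, the gamma subunit, between -0.38 and 0.24. The 4 subunits of the translocon-associated complex, Ssr1 to Ssr4, had adjusted p of at least 0.115, the lowest for Ssr4 with IF at 8 h, where 1 library at 279 CPM stood above its companions at 143 and 158 CPM. Serp1, a small protein that shields nascent membrane proteins, reached 0.42 ± 0.165 with IF at 22 h (adjusted p = 0.151), and Sec63 stayed between -0.17 and -0.02.

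Sec62, a channel partner used by small secreted proteins and by ER-phagy, split the IF 22 h group. Its 3 libraries were at 264, 85.6 and 90.8 CPM, against 188 to 287 CPM in the other 12 libraries of the series. Replicates 2 and 3, the libraries with little mitochondrial ribosomal RNA, were thus more than 2-fold below every other library. In both of them 127 tested genes were more than 2-fold below every other library, and Sec62 was the 1 member among them. The log2 fold change over the 3 libraries was -0.72 ± 0.313 (edgeR adjusted p = 0.201). Without replicate 1 it was -1.45 (adjusted p = 0.00013), a call that rests on replicates 2 and 3 alone. The part of the libraries' composition in this value was not tested.

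The 6 genes of ER-associated degradation gave no call against unstimulated cells by edgeR as fitted. Derl2, a retrotranslocation factor, was at 24.1, 34.7 and 27.0 CPM unstimulated and above that range in each of the 12 stimulated libraries, from 36.1 to 52.3 CPM. Its log2 fold changes were 0.57 with IF and 0.63 with DC at 8 h (edgeR adjusted p = 0.112 and 0.0805, the second 0.0453 by DESeq2), and 0.52 with either at 22 h (adjusted p = 0.162 and 0.147). Its paralog Derl1 lay between -0.19 and 0.08. Edem1, a mannosidase-like factor that marks glycoproteins for disposal, was at 101 to 142 CPM in all 15 libraries. The ligase Syvn1 and its partner Sel1l had values from -0.40 to 0.44 with adjusted p of at least 0.34. Herpud1, a stress-induced organiser of the same complex, had values from -0.29 to 0.14 with adjusted p of at least 0.52. Exonic bases are shared with a neighbouring gene by 16 of the 39 members, including Derl2, Spcs3, Sec62, Serp1, Pdia3 and Pdia6.

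IF and DC were then compared with each other at each time. No member passed at either time: 0 of 38 at 8 h, where 0.665% of all genes were called (0.231% higher and 0.434% lower in IF), and 0 of 38 at 22 h, where 2.43% were (1.23% higher and 1.2% lower), by edgeR. At an unadjusted p under 0.05 there were 2 and 6 members, beside 8.27% and 15.3% of all genes. DESeq2 called 0 and 1, beside 1.8% and 5.2%. The nearest was Sec61g at 22 h, at 54.0, 77.3 and 72.0 CPM with IF and 48.3, 45.5 and 38.7 CPM with DC. These groups did not overlap, with a log2 fold change of IF over DC of 0.62 ± 0.185 (edgeR adjusted p = 0.0995). Atf6 gave 0.42 at 8 h and 0.56 at 22 h (adjusted p = 0.761 and 0.297), and Hspa5 gave -0.32 and -0.65 (adjusted p = 0.909 and 0.32). At 8 h IF was wholly above DC for 3 members (5.81% of all genes) and wholly below for 1 (7.69%). At 22 h these numbers were again 3 (10.8%) and 1 (9.11%). The unadjusted 95% interval lay within 2-fold for 31 of 38 members at each time, against 52.7% and 49.8% of all genes. Single libraries bore on the 22 h count: without IF 22 h replicate 1 it was 2 (Sec61g, adjusted p = 0.0221, and Sec62, adjusted p = 0.000412), where the share of all genes rose from 2.43% to 6.81%. Leaving out replicate 2 of both DC groups, chosen after seeing the data, gave 1 (Serp1, 0.55, adjusted p = 0.0489). In that fit 3.11% of all genes were called.

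The change from 8 h to 22 h was also tested within each stimulus. No member passed with IF (0 of 38, against 1.12% of all genes, 0.637% higher and 0.48% lower) or with DC (0 of 38, against 0.48%, 0.379% higher and 0.102% lower). By edgeR, at an unadjusted p under 0.05 there were 5 and 2, beside 15% and 9.03% of all genes. DESeq2 called 0 members in both, and 3.38% and 1.94% of all genes. None of these fits paired libraries by number, although same-numbered DC libraries deviated together between the times. With the replicate number as a block over all 5 groups, edgeR called 0 of 38 in both, beside 0.969% and 0.452% of all genes. With IF, 2 members were wholly above (12.1% of all genes) and 5 wholly below (9.36%), the latter including Xbp1 (-0.73 ± 0.266, edgeR adjusted p = 0.205), Hspa5 (-0.64 ± 0.304, adjusted p = 0.333) and Dnajb11 (-0.63 ± 0.209, adjusted p = 0.168). With DC, 1 was wholly above (6.88%), namely Dnajc3 (0.60 ± 0.199, adjusted p = 0.273), and 2 wholly below (7%). The test of whether the IF-DC difference itself changed with time called 0 of 38 members and 0% of all genes, with 2 members at an unadjusted p under 0.05 (7.92% of all genes) and 0 called by DESeq2 (0.369%). Without IF 22 h replicate 1, Sec62 was called for the change with IF (-1.46, adjusted p = 0.000195) and for the change of the IF-DC difference (-1.34, adjusted p = 0.00488). It was the 1 member called in each, beside 4.85% and 2.5% of all genes.

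Replicate 2 of the DC groups was high in the ER genes at both times. It was the highest of its group for 30 of 39 genes at 8 h and 28 of 39 at 22 h, where the same held for 36.2% and 39.2% of all genes. Compared with the mean of replicates 1 and 3 on the log2(CPM + 1) scale, it was above for 32 of the 38 tested members at each time, for 29 of them at both. The median difference was 0.32 at 8 h and 0.37 at 22 h, while the other 13 libraries, each set against its 2 companions, ranged from -0.27 to 0.11. The 8 genes with an ER stress element had medians of 0.47 and 0.70, beside 0.25 and 0.29 for the 22 tested genes whose window held none. Among those 22 are Dnajb11 and Herpud1, which carry ER stress element II. Dnajb9 and Spcs2, whose windows hold no base before the GENCODE start, are also among them. As folds on that scale, Sdf2l1 (2.10-fold at 8 h and 2.62-fold at 22 h), Hspa5 (2.07 and 2.06), Creld2 (1.75 and 2.40) and Pdia6 (1.71 and 1.95) were the highest at 8 h. Herpud1 (0.891 and 0.807) and Edem1 (0.92 and 0.843) were below their companions at both times, as was Sec62. Of the genes with an element, Syvn1 (0.711 and 1.07) and Dnajc3 (1.09 and 0.93) were below at 1 time each. Dnajb9 was at 8.94 CPM against 7.22 and 7.19 at 8 h and at 3.87 CPM against 7.73 and 8.88 at 22 h. B and plasma cell markers were lowest in the same 2 libraries, 9.18 against 19.1 and 27.7 CPM at 8 h and 7.95 against 17.6 and 23.7 CPM at 22 h, with Ms4a1 at 0 in both. They were also lowest in dendritic cell markers (977 against 1350 and 1190 CPM at 8 h, 533 against 722 and 733 CPM at 22 h) and in T cell markers (3830 against 4370 and 4610 CPM, 4140 against 4660 and 5270 CPM). Macrophage and neutrophil markers were lowest there too, at 0.124 and 0.663 CPM. The share of counts from mitochondrial rRNA was 1.82% against 2.24% and 2.15% at 8 h and 1.95% against 2.76% and 4.49% at 22 h. The pattern was noticed in these data, and the part of these marker and rRNA levels in it was not tested. Leaving out both libraries was chosen after seeing the data. In that fit 3 members passed with DC at 22 h (Dnajb9, Hspa5 and Spcs2, the last at edgeR adjusted p = 0.0489), against 1 with both kept. That was 7.89% of members, beside 6.29% of all genes.

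**Figure D4:**
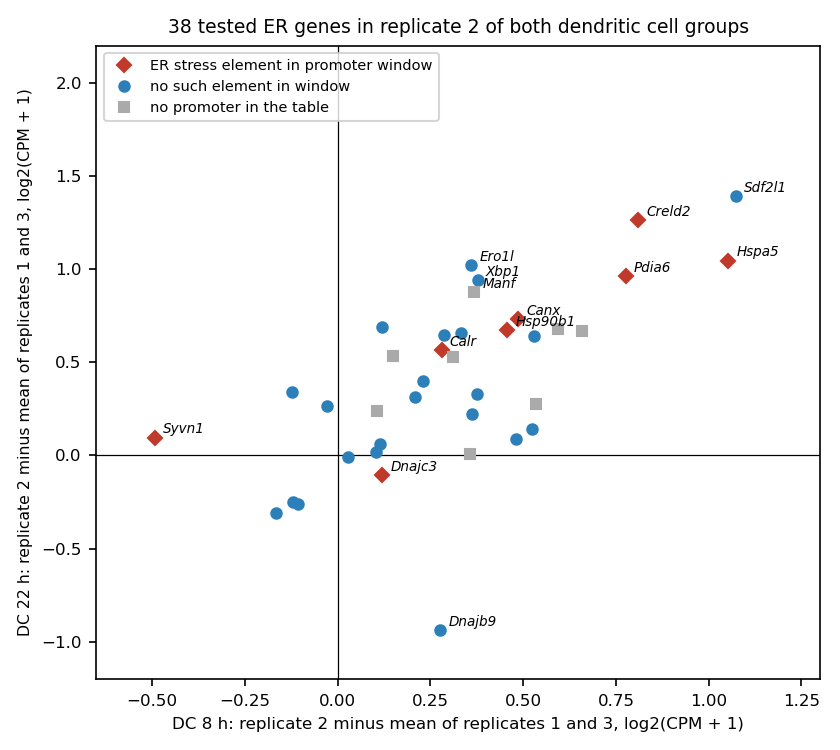
Each point is 1 of the 38 tested ER genes, with the log2(CPM + 1) of replicate 2 minus the mean of replicates 1 and 3 in the DC 8 h group (x axis) and the DC 22 h group (y axis), marked by whether its promoter window holds an ER stress element. Of the points, 29 lie above 0 on both axes, with Sdf2l1, Creld2, Hspa5 and Pdia6 farthest out.

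The PERK-ATF4 arm, which lies outside the 39 genes, held a larger share of called genes than the 39 in these libraries. Its list was chosen with earlier results of these data known, so the shares below describe the list and are no test of it. Of 14 listed genes 12 were tested, and those called higher and lower against unstimulated cells were 1 and 4 with IF at 8 h, 1 and 2 with DC at 8 h, 1 and 3 with IF at 22 h, and 2 and 4 with DC at 22 h. These are 41.7%, 25%, 33.3% and 50% of the 12, beside 7.76%, 6.82%, 6.08% and 7.76% of all tested genes. Their median log2 fold change was -0.41, -0.51, -0.83 and -0.70 in that order, and is the same with Trib3, which had no count in unstimulated cells, set at its lower bound. Ppp1r15a (GADD34), the phosphatase subunit that reverses the translation block set by PERK, was at 325, 354 and 438 CPM unstimulated. It was at 64.7, 34.1 and 46.0 CPM with IF and 66.0, 35.6 and 61.5 CPM with DC at 8 h, and at 12.9 to 19.0 CPM with IF and 14.7 to 22.9 CPM with DC at 22 h. The 5 groups formed 3 separate levels by time. Ppp1r15a fell by 2.94 ± 0.284 with IF and by 2.77 ± 0.279 with DC at 8 h on the log2 scale (edgeR adjusted p = 9.21e-06 and 1.66e-05), and by 4.46 ± 0.303 and 4.22 ± 0.299 at 22 h (adjusted p = 2.14e-07 and 3.23e-07). These 4 calls held under every setting run. From 8 h to 22 h it fell by a further 1.53 with IF (adjusted p = 0.0137) and 1.44 with DC (adjusted p = 0.0268). These calls of time were lost in 6 of 15 settings each, with adjusted p up to 0.62 and 0.222, among them the settings without IF 8 h replicates 1 or 3, IF 22 h replicates 2 or 3, DC 8 h replicates 1 or 3 and DC 22 h replicates 1 or 2.

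Atf4, the factor whose translation PERK promotes, was at 214, 216 and 256 CPM unstimulated. It fell by 0.74 ± 0.194 with IF at 8 h (edgeR adjusted p = 0.0287), by 0.91 ± 0.193 with IF at 22 h (adjusted p = 0.00924) and by 0.68 ± 0.193 with DC at 22 h (adjusted p = 0.0394). With DC at 8 h the value was -0.54 (adjusted p = 0.109). Leaving out any 1 of the 6 libraries compared lost the Atf4 call with IF at 8 h (adjusted p up to 0.111), leaving out unstimulated replicate 3 lost it with IF at 22 h, and 5 of 6 such fits lost it with DC at 22 h, all but the one without DC 22 h replicate 2. With library totals alone as the scaling, the Atf4 calls with IF at 8 h (-0.50, adjusted p = 0.108) and DC at 22 h (-0.34, adjusted p = 0.23) were lost as well. Cebpb, a stress-responsive factor, fell by 2.26, 1.72, 1.96 and 1.36 on the log2 scale in the 4 groups (adjusted p = 0.00145, 0.00699, 0.00321 and 0.0242), the last call being lost without unstimulated replicates 2 or 3 or DC 22 h replicates 1 or 3 (adjusted p up to 0.121) and with library totals alone (-1.03, adjusted p = 0.0562). Ddit3 (CHOP), the proapoptotic factor of the arm, was at 28.8, 24.9 and 31.2 CPM unstimulated and below that range in all stimulated libraries. Its log2 fold changes ran from -0.90 to -0.52, with adjusted p from 0.0598 to 0.282 by edgeR as fitted. Trib3, a pseudokinase induced by CHOP and ATF4, had no count in the 3 unstimulated libraries and 17 to 131 counts in each stimulated one. Against a floor of 3 counts per library it was at least 16.3-fold higher with IF and 11.1-fold with DC at 8 h, and at least 15.2-fold and 14.6-fold at 22 h (edgeR adjusted p from 0.00107 to 0.00202). The remaining calls were Ddit4, a stress-induced inhibitor of mTORC1, with log2 fold changes of -1.08 with IF at 8 h (adjusted p = 0.0239) and -0.92 with DC at 22 h (adjusted p = 0.0412), and Cebpg, a partner of ATF4, at 0.77 with DC at 22 h (adjusted p = 0.0368). Each of these 3 was lost without any of several single libraries, unstimulated replicates 1 and 2 among them (adjusted p up to 0.111, 0.186 and 0.119). Both Ddit4 calls were also lost with library totals alone (-0.84 and -0.59, adjusted p = 0.0622 and 0.134).

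**Figure D5:**
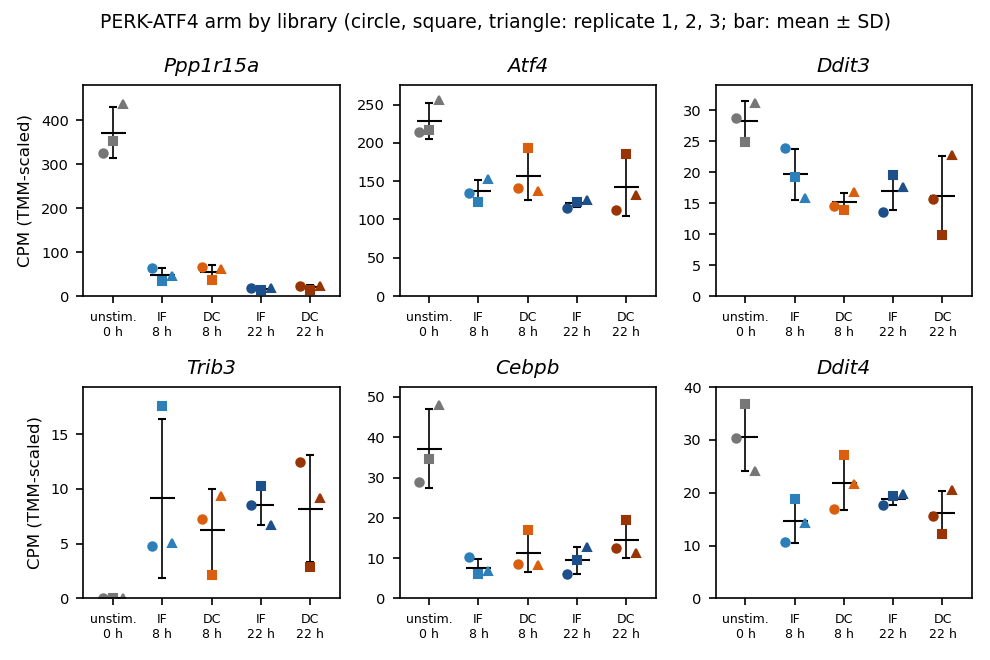
CPM of 6 genes of the PERK-ATF4 arm in each library (circle, square and triangle for replicates 1, 2 and 3; bar for mean ± SD over 3 libraries) in the 5 groups, with each axis starting at 0. Ppp1r15a steps down from 325 to 438 CPM to under 70 CPM at 8 h and under 25 CPM at 22 h, while Trib3 is at 0 in unstimulated cells and above 0 in all stimulated libraries.

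The 7 further lists of the secretory pathway had between 0% and 20% of their tested genes called in a comparison with unstimulated cells, where 6.08% to 7.76% of all genes were. All 12 oligosaccharyltransferase genes, which transfer the glycan, and all 8 genes of the signal recognition particle and its receptor, which bring ribosomes to the ER, gave no call against unstimulated cells (smallest adjusted p 0.118 and 0.0902, edgeR). Among 10 genes of glycan trimming and quality control, Mlec, a lectin for newly glycosylated proteins, rose by 0.68, 0.61 and 1.10 on the log2 scale with IF at 8 h, DC at 8 h and IF at 22 h (adjusted p = 0.0236, 0.042 and 0.000986). Os9, a lectin that delivers misfolded glycoproteins for degradation, fell by 0.91 with IF at 8 h (adjusted p = 0.00464) and by 0.66 with DC at 22 h (adjusted p = 0.0269). Leaving out single libraries kept the calls of Mlec with IF at 22 h and of Os9 with IF at 8 h, whereas the other 3 calls were lost in 5 or more such fits or settings (adjusted p up to 0.205, that of Os9 with DC at 22 h and library totals alone, at -0.32). Among 21 genes of COPII transport and retrieval, Tmed9, a cargo receptor, fell by 0.67 with IF (adjusted p = 0.0352) and 0.86 with DC at 22 h (adjusted p = 0.00717), the first call being lost without unstimulated replicates 2 or 3 or IF 22 h replicates 2 or 3 (adjusted p up to 0.18) and the second without unstimulated replicate 2 (-0.68, adjusted p = 0.0548). Both were also lost with library totals alone (-0.47 and -0.53, adjusted p = 0.139 and 0.0653). Single further calls, each lost in 4 or more of 15 settings (adjusted p up to 0.604), were lower values for Tram1 with DC at 8 h, for Sec11c, Sep15 and Vimp with IF at 22 h, and for Emc1, Emc10, Sep15 and Selk with DC at 22 h, with log2 fold changes from -0.85 to -0.57, and a higher value of 0.55 for Sec24c with IF at 22 h. By edgeR as fitted, none of the 8 lists gave a call between IF and DC at either time.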

How the data were processed

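Bulk RNA was measured in 15 libraries, 3 in each of 5 groups, prepared with an adapted CEL-seq protocol per the labels' protocols, in which reverse transcription starts from barcoded oligo-dT. The authors deposited whole-number counts for each gene, not normalized. Reads were mapped with BWA to mm10, per the submitters' processing notes. The counting program, annotation, use of strand and use of molecular identifiers are not given in the sources used here, so the limits of depth cover counting error only.

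The 39 genes were matched by symbol, all columns were used, and total counts ran from 2892874 to 19806730. Within-group pairs of libraries all differed beyond sampling noise, so none was counted as a duplicate. In R 4.3.3, edgeR 4.0.16 (with limma 3.58.1) kept genes by filterByExpr (minimum count 10, minimum total 15), which left out at most 0.124% of a library's counts. Libraries were scaled by TMM, and the quasi-likelihood fit took all 10831 genes with a mean for each of 5 groups. Log2 fold changes used a prior count of 0.125 and carry a standard error. Tests were two-sided, adjusted by Benjamini-Hochberg within each comparison at 0.05. The script was tested on simulated data.

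Alternatives were a threshold of 0.01, DESeq2 size factors, library size alone, a minimum mean of 10 CPM, no filter, DESeq2 1.42.0 for edgeR, the replicate number as a block, only the groups compared, each library left out, and IF 22 h replicates 2 and 3 left out together. Leaving out replicate 2 of both DC groups together was chosen after seeing the data. Between DC 8 h and DC 22 h, same-numbered libraries deviated together (r of 0.276, 0.665 and 0.466 for numbers 1, 2 and 3 over 6951 genes). The numbers may thus pair those groups, but the main fit did not use a pairing. The replicate block gave each number an effect shared by all 5 groups, and no fit paired the DC groups alone. The titles repeat Don1 to Don3 in every group without saying what they share.

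Any of the 39 genes could be named. Values in every library were given for members called in at least 2 of 4 comparisons with unstimulated cells and for Xbp1, Ern1, Atf6 and Hspa5. Of each further pathway list, at most 3 called genes per direction with the smallest p could be named, besides Atf4 and Ddit3. The members and lists were chosen with earlier results of these data known. Gene positions are from GENCODE vM21 (GRCm38) and promoter windows from RefSeq (GRCm38.p6), and 31 of the 39 matched a window (not Sil1, Manf, Spcs3, Hyou1, Sec61a1, Ssr2, Derl1 and Atf6). GENCODE places the starts of several genes further upstream than RefSeq, by 120 bases for Hspa5, 258 for Dnajb9 and 4579 for Spcs2.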

Additional observations from a re-analysis of the deposited data

Results flagged for a closer look

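Dnajc3 was ordered differently by stimulus at the 2 times. At 8 h its 3 IF libraries (66.8, 60.9 and 58.9 CPM) all lay above the 3 DC libraries (57.8, 56.1 and 45.3 CPM), and at 22 h its IF libraries (74.3, 58.5 and 50.5 CPM) all lay below the DC libraries (83.2, 76.5 and 81.3 CPM). The IF-DC difference on the log2 scale changed by -0.63 ± 0.283 (SE) from 8 h to 22 h, with an unadjusted p of 0.0411 and an edgeR adjusted p of 0.602, which did not pass.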

How the results depend on the processing

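Counts of called ER genes moved by more than 1.5 times in these cases, each with the share of all genes called in the same fit in parentheses. At IF 8 h against unstimulated cells, 1 (7.76%) became 7 with library size alone (10.3%; 6 higher, beside 7.84%), 4 without a low-count filter (6.82%), 2 at a mean of 10 CPM (11.1%), 3 with DESeq2 (11.7%), 4 with the replicate block (7.08%) and 3 with only the groups compared (13.7%). For DC 8 h, library size alone kept the count at 2 but replaced Dnajc3 by Derl2, and 2 (6.82%) became 1 at an adjusted p of 0.01 (2.83%) and at a mean of 10 CPM (9.64%), and 4 with DESeq2 (10.8%). For IF 22 h, 1 (6.08%) became 2 with DESeq2 size factors (6.29%), 4 with library size alone (7.74%; 3 higher, beside 5.73%), 3 without the filter (6.43%), 6 with DESeq2 (9.84%), 2 with the block (5.89%), 4 with only the groups compared (9.93%) and 0 without IF 22 h replicates 2 and 3, which left 1 library in that group (Dnajb9 -1.56, and 0.833% of all genes called). For DC 22 h, 1 (7.76%) became 2 with DESeq2 size factors (7.78%), 4 with library size alone (14.6%; 3 higher, beside 12.5%), 3 with DESeq2 (11.7%) and 3 without replicate 2 of both DC groups (6.29%). Between IF and DC at 22 h, 0 (2.43%) became 1 with DESeq2 (5.2%) and 1 without replicate 2 of both DC groups (3.11%). Between IF 22 h and IF 8 h, 0 (1.12%) became 1 without the filter (2.93%). The causes of these moves were not tested.

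With 1 library left out the counts ranged from 1 to 1 (IF 8 h; 3.75% to 5.13% of all genes), 1 to 2 (DC 8 h; 3.61% to 5.94%), 1 to 5 (IF 22 h; 2.53% to 8.49%) and 1 to 1 (DC 22 h; 4.06% to 8.81%) against unstimulated cells. They ranged from 0 to 2 for IF against DC at 22 h (0.805% to 6.81%), 0 to 1 for IF over time (0.215% to 4.85%) and 0 to 1 for the change of the IF-DC difference (0% to 2.5%). They stayed at 0 for IF against DC at 8 h (0.242% to 0.467%) and for DC over time (0.00898% to 1.24%). Over the 342 results of single members, 5306 of 5369 repeats kept their side of the threshold, 57 passed it only in the repeat and 6 lost it. Of results called in either fit, 0 changed direction. Direction was not compared where neither fit called the gene. Scaling by library size alone shifted the median of all genes to 0.258, 0.303, 0.216 and 0.366 (log2) against unstimulated cells, and the directions given hold on the TMM scale. The replicate block changed no count of called members in comparisons other than IF 8 h and IF 22 h against unstimulated cells. In no comparison other than DC 22 h against DC 8 h did all 3 same-numbered pairs deviate together with r over 0.1, and whether Don1 to Don3 are the same animals in every group is not known. A further 2 pairs exceeded it, IF 22 h replicate 1 with DC 8 h replicate 1 (0.168) and with DC 22 h replicate 1 (0.132). Over all 30 same-numbered pairs, those of the DC groups included, the median r was 0.0117, against -0.00332 for other pairs, and 10 of 15 libraries correlated best with their own number. Depth limits Ern1, which the low-count filter left out and which was not called without that filter.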
